A study of Mus musculus with 4 samples.

Results

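The genes described here are 10 claudins, connexins and a junction scaffold that are known from nerve and blood vessel: Cldn1, Cldn5, Cldn11, Cldn15, Cldn19, Tjp1, Gja1, Gja4, Gjb1 and Gjc3. They were chosen by gene symbol. Every probe set of the array whose annotated symbol was one of these names, or Gje1, was taken, which gave 21 of 45101 probe sets, for 10 of 18193 genes with a probe set. The symbol Gje1 is an older name of Gjc3, but the 1 probe set that carries it has the gene identifier of another connexin gene, now called Gje1. It was kept in the 21 because the rule takes it, and it is not counted as Gjc3.

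RNA of the left hemi-diaphragm of mice, a side of the main muscle of breathing, had been measured on 4 one-colour arrays. There were 2 arrays of the synaptic region, which holds the band where the motor nerve meets the fibres, and 2 arrays of the non-synaptic region. The tissue came with no stated genotype, strain, treatment, age or way of cutting in the sources used here. Whether a region's arrays stem from different animals is not said, and the p-values therefore reflect only how far these arrays spread, which may be technical. The sample titles carry a number, 1 or 2, in both regions without explaining it, and arrays are named here by region and number.

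Claudins are membrane proteins that seal the gap between neighbouring cell membranes at tight junctions, and Tjp1 encodes a scaffold that ties them to the cytoskeleton. Connexins form channels that join the insides of cells, or the layers of a single cell, at gap junctions. In a peripheral nerve the perineurium, a sheath of flat cells around the bundle, is known for Cldn1, and myelinating Schwann cells are known for Cldn19, Gjb1 and Gjc3. Endothelial cells of vessels are known for Cldn5, and those of arteries for Gja4.

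The design asks which transcripts differ between the muscle around the synapses and the muscle away from them. For these genes the data fell into 2 kinds. Of the 5 genes that are better known from nerve or myelin, all were dim on the mean of the 4 arrays, below the filter that the test required. Cldn1 missed that filter narrowly, with a mean log2 value of 8.85 against 8.87, and its synaptic arrays averaged 9.85. Cldn1, Cldn19, Gjb1 and Gjc3 had a probe set with both synaptic arrays above both non-synaptic arrays, while Cldn11 lay the other way. Counted by probe set, 7 of the 11 below the filter had both synaptic arrays above and 1 had them below. Among all probe sets below the filter the shares were 16.3% and 14.5%, and several of the 7 share a gene. Cldn1 also had probe sets on which the regions overlapped, and most Gjb1 values were too low to measure. The other 5, Cldn5, Gja4, Cldn15, Gja1 and Tjp1, were measured above the filter, and none passed the test. On the brightest probe set of each, the regions overlapped and differed by at most 0.21 on the log2 scale. Of the dimmer Gja1 probe sets, 1 differed by -1.21 and another had both synaptic arrays below, against 9.98% of all tested probe sets. A bulk sample cannot tell apart fewer cells of a type and less RNA per cell.

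Intensities are on a linear scale, 1 value per probe set. The lowest 20 in 100 of all values were raised to a common floor of 158.9 before log2 was taken, so 7.31 is the lowest log2 value. The limma fit covered 26480 probe sets, those whose log2 values averaged at least 8.87, a filter set at the 40th percentile. Of the 21 probe sets 10 passed this filter, from 5 of the 10 genes. The brightest probe set, by mean log2 value, stands for a gene, and the others are given beside it. The median intensity of the 4 arrays lay between 658 and 769, each array had 18.7% to 21.3% of its values at the floor, and the Gapdh ratio of 3′ over 5′ probes, which rises as RNA degrades, was 1.03 on synaptic array 1 and from 0.814 to 0.853 on the others. All 8 muscle fibre markers were measured, with a median difference of 0.04, and 0 of them passed the limma test, with 0 at an unadjusted p under 0.05.

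The reference sequence just before and after the start of transcription is shown for the 4 genes whose synaptic arrays lay above the others, and for Cldn5, a vessel gene whose regions overlapped, as a contrast. Each window covers 250 bases before to 50 after an annotated start and comes from RefSeq, build GRCm38.p6, 5′ to 3′ on the gene's strand. Capitals mark 4 short words searched on both strands: ACAAAG, known from SOX factors, GTGGGCG, known from EGR factors, AGGAAG, known from ETS factors, and TATAAA. Gjb1 has 4 annotated starts in the table, and the one shown was picked after the matches were seen because it holds 3 of the 4 words.
Cldn1, chr16:26371790-26372089, minus strand: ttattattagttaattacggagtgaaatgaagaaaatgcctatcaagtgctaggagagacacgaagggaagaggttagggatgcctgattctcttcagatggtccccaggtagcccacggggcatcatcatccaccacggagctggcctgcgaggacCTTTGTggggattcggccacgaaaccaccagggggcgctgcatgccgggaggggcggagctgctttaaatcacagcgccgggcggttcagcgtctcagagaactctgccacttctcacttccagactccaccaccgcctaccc
Cldn19, chr4:119255191-119255490, plus strand: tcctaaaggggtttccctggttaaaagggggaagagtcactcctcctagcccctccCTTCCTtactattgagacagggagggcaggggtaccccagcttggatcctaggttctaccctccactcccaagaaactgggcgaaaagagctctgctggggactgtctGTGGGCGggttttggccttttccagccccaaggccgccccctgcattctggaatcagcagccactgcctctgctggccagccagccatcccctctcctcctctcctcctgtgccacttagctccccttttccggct
Gjb1, chrX:101383482-101383781, plus strand: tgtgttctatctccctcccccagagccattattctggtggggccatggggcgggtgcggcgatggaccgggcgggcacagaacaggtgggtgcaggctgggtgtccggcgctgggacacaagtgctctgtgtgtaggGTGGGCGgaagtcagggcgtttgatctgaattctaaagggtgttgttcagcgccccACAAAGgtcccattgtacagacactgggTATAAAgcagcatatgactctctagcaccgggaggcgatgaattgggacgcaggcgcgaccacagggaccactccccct
Gjc3, chr5:137963049-137963348, minus strand: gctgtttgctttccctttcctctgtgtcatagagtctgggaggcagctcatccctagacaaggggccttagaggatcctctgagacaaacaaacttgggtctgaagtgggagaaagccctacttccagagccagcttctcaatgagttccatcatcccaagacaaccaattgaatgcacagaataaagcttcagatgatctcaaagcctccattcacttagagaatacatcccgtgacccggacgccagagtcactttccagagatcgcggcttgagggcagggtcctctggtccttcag
Cldn5, chr16:18776597-18776896, plus strand: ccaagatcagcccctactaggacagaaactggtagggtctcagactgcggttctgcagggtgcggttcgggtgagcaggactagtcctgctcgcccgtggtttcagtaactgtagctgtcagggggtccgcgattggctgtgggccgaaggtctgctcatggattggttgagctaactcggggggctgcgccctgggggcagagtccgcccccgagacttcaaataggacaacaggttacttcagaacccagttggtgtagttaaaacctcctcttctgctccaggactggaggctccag

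The words were found in 18.7% (SOX word), 7.97% (EGR word), 35.4% (ETS word) and 13.6% (TATA word) of all 32851 windows of this length. Among the 14 windows of the 10 genes, 3 held the SOX word, 3 the EGR word, 6 the ETS word and 1 the TATA word. Cldn1 held the SOX word, read on the opposite strand. Cldn19 held the EGR word and, on the opposite strand, the ETS word, and its other window overlaps the one shown and holds the same matches. The Gjb1 window shown held the SOX, EGR and TATA words. None of the 4 words lay in the windows of Gjc3 and Cldn5. Of the genes not shown, Cldn15 and Gja1 held the ETS word, and Cldn11, Gja4 and Tjp1 held none of the 4. A match is a run of letters and no evidence of binding, and these windows cover only a short stretch of each gene. Gje1 has no window here and was only named.

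Gjc3 encodes a connexin of myelinating Schwann cells. Its first probe set, 1422042_at, had intensities of 328 and 680.2 on synaptic arrays 1 and 2, against 101 and 63.8 on non-synaptic arrays 1 and 2. Both non-synaptic arrays were below the floor and both synaptic arrays above it. Averaged on the log2 scale, these synaptic arrays were thus at least 2.97-fold higher, a bound that synaptic array 1 alone would make smaller. The second probe set, 1445523_at, had 271 and 574 on the synaptic arrays and 226 and 125 on the others. The regions did not overlap on either probe set, and the gap on the second was narrow between the arrays numbered 1. On the log2 scale the second differed by 1.06, less than the bound from the first.

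Cldn19 encodes a claudin of the Schwann cell membrane. Its only probe set, 1425727_at, had intensities of 314 and 501 on the synaptic arrays and 130.4 and 90.7 on the non-synaptic arrays. The regions did not overlap, and with both non-synaptic arrays below the floor this probe set was at least 2.49-fold higher in the synaptic region.

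Gjb1 encodes a connexin of myelin whose mutations cause an X-linked form of Charcot-Marie-Tooth neuropathy. Intensities of its probe set 1448766_at were 304 and 50.5 on the synaptic arrays and 18.3 and 14.8 on the others. Only synaptic array 1 was above the floor, so no fold is given. The other probe set, 1448767_s_at, had 138 and 118 against 63.2 and 43.4, all below the floor. Both probe sets kept the order of the regions, at intensities where the level could not be measured.

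Cldn1 encodes a claudin of the perineurium and of many epithelia, and had 4 probe sets. On 1437932_a_at the synaptic arrays were at 668 and 1267 and the non-synaptic arrays at 93.2 and 339.8. The log2 difference was 1.98, with non-synaptic array 1 at the floor. On 1450014_at the values were 334 and 717 against 188 and 318, a mean of 525 against 253. The regions did not overlap on these 2 probe sets, although non-synaptic array 2 came close to synaptic array 1 on the second. They overlapped on 1438851_x_at, with 241 and 94.8 against 97.5 and 189, and on 1438850_at, where no array exceeded 52.6. The 4 probe sets of Cldn1 thus do not give a single answer.

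Cldn11 encodes a claudin best known from central myelin and from the testis. Its probe set, 1416003_at, had intensities of 117 and 201 on the synaptic arrays and 238 and 327 on the non-synaptic arrays. Here the synaptic arrays lay below both others, by 0.64 on the log2 scale (a difference of -0.64), with synaptic array 1 at the floor. The probe set annotated as Gje1 had intensities of 3.4 and 5.4 against 1.8 and 29.8, all below the floor.

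**Figure D1:**
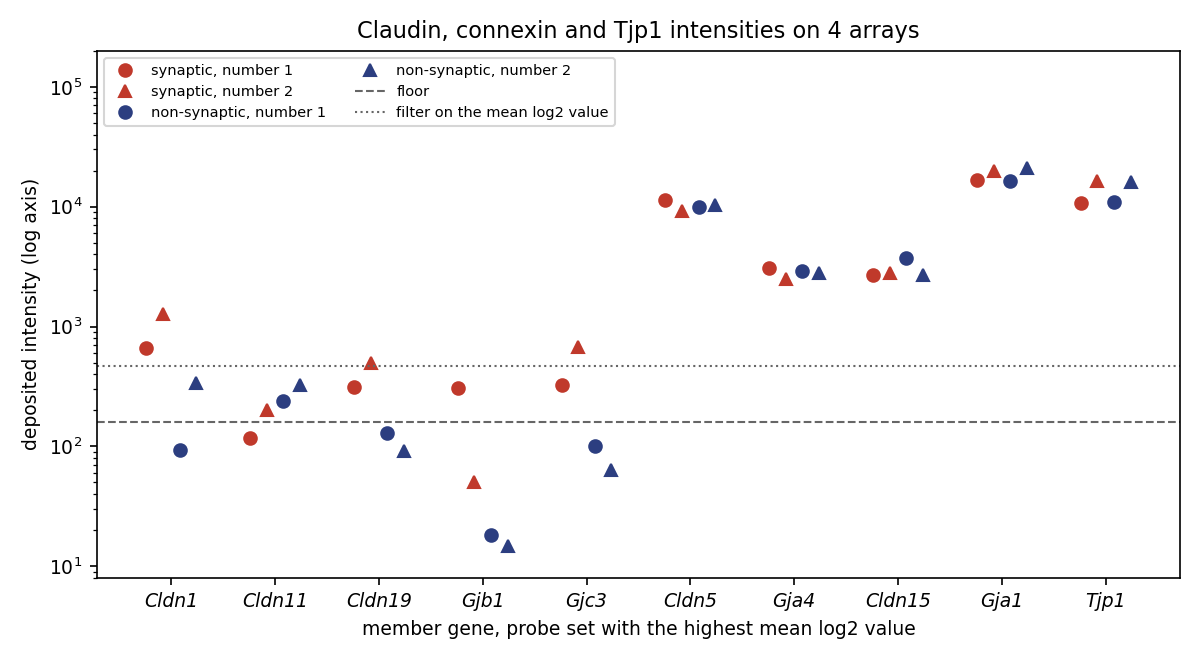
Deposited intensity (log axis) of each of the 10 genes on the 4 arrays, for the probe set that stands for the gene, with the floor (dashed) and the filter (dotted). The 5 genes at the left straddle or lie under these lines, and for Cldn1, Cldn19, Gjb1 and Gjc3 both synaptic points lie above both non-synaptic points.

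Of the 11 probe sets below the filter, 7 had both synaptic arrays above both others, and 1 had them below. These 7 belong to 4 genes, and probe sets of a gene share their target, so they are not 7 independent readings. Among all 18557 probe sets below the filter, 16.3% had both synaptic arrays above and 14.5% below, and among all 45037 probe sets that are not controls the shares were 12.5% and 11.8%. The genes were chosen with earlier results of these arrays known, so these counts are a description. With the floor applied the count of 7 became 5 (against 9.77% of all probe sets), since on both Gjb1 probe sets a synaptic array then ties with the others. With the floor at the 40th percentile it became 1 (against 6.33%), the Cldn1 probe set 1437932_a_at.

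A limma fit without the filter gave a test for these dim probe sets. None of the 21 passed the adjusted threshold of 0.05 in it, nor did any other probe set (0% of 45037). At an unadjusted p under 0.05 there were 2, against 3.34% of all probe sets, both higher in the synaptic region, against 1.83% in that direction. These were Cldn19, with a difference of 1.32, and Gjc3 on 1422042_at, with 1.57. On both, the 2 non-synaptic arrays are tied at the floor, so that region has no spread by construction, the difference is a lower bound and the p is not a measure of replicate error. The standard errors with the floor were 0.29 and 0.45, and without it 0.62 and 0.69. The probe set 1437932_a_at of Cldn1 had 1.98 ± 0.64 (SE), with a 95% interval from -0.11 to 4.08. Cldn11 had -0.64 ± 0.24, with an interval from -1.44 to 0.16. With no floor either, a setting added after the data were seen, 4 of the 21 had an unadjusted p under 0.05, all higher, against 1.35% of all probe sets, and none passed after adjustment. These were 1 probe set each of Cldn1, Cldn19, Gjb1 and Gjc3, and each rests on non-synaptic values below the floor, so their sizes are not given. Permuting 2 arrays against 2 exactly reaches no p lower than 0.333, and that test was left aside.

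Markers of myelinating Schwann cells were compared beside these genes. Of 15 listed, 11 had a probe set here and 10 were measured. All 10 had both synaptic arrays above both others, against 9.89% of all tested probe sets, with a median difference of 1.53. The adjusted limma test was passed by 1, Mbp, against 0.0113% of all tested in either direction. An unadjusted limma p under 0.05, higher in the synaptic region, was seen for 8, against 0.653%. Summed over the 11 genes, the intensity was 113301 and 126537 on the synaptic arrays and 35261 and 36724 on the non-synaptic arrays. Mbp, myelin basic protein, read 41115 and 44323 on the synaptic arrays against 3596 and 3941, and it rose (limma adjusted p = 0.0326). Ncmap, a myelin adhesion protein, differed by 3.54 ± 0.26 and Pmp22, a protein of compact myelin, by 1.16 ± 0.15, and neither passed (limma adjusted p = 0.0963 and 0.492). The part of Schwann cell content in the values of Cldn19, Gjb1 and Gjc3 was not tested.

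Markers of the perineurium, beside Cldn1, were measured for 3 of 6 genes. All 3 had both synaptic arrays above both others, against 9.89% of all tested probe sets, with a median of 0.45. Intensities summed over all 6 ran from 7762 to 8154 on the synaptic arrays and from 5295 to 5652 on the non-synaptic ones. Slc2a1, the glucose transporter of barrier cells, differed by 0.45 ± 0.28 and Ptch1, a hedgehog receptor, by 0.62 ± 0.26, and neither passed (limma adjusted p = 1 for both). Lypd2 and Crabp2 lay at the floor on all 4 arrays. The part of perineurial content in the values of Cldn1 was not tested.

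Cldn5 encodes the claudin of the endothelial barrier. Its intensities were 11468 and 9210.4 on synaptic arrays 1 and 2 and 9897 and 10368 on the non-synaptic arrays. The regions overlapped, and the log2 difference was 0.02 ± 0.19 (SE, n = 2 arrays per region), with a 95% interval from -0.47 to 0.51 (limma adjusted p = 1).

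Gja4 encodes a connexin of arterial endothelium. Its arrays read 3060.3 and 2474 in the synaptic region and 2908 and 2781 in the non-synaptic region, which overlap. The difference was -0.05 ± 0.22, with a 95% interval from -0.61 to 0.52.

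Cldn15 encodes a claudin known from gut epithelium, and also found on the mesothelium that covers the diaphragm. Its intensities were 2679 and 2782 in the synaptic region and 3720.4 and 2688 in the non-synaptic region. Non-synaptic array 1 stood above the other 3. The difference was -0.21 ± 0.25, with a 95% interval from -0.84 to 0.42.

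Markers of vessel and lining were compared beside Cldn5, Gja4 and Cldn15. All 14 endothelial markers were measured, with a median difference of -0.10 and a range from -0.52 to 0.09, and 0 of 14 passed the limma test, with 0 at an unadjusted p under 0.05. Their summed intensity was 100542 and 118208 on the synaptic arrays and 109295 and 128742 on the others. The 4 measured of 5 arterial markers had a median of -0.12, with summed intensities of 12638 and 14006 against 13831 and 14383. Eng, a receptor of endothelial cells, differed by -0.02 ± 0.16 and the von Willebrand factor gene Vwf by -0.52 ± 0.30. All 10 mesothelial markers were measured, with a median of -0.13, a range from -0.30 to 0.02 and summed intensities of 51293 and 48399 against 58406 and 48204. Among these, Upk3b, a uroplakin of mesothelium, differed by -0.06 ± 0.18 and the mucin gene Muc16 by -0.29 ± 0.23. In the arterial and the mesothelial list, too, 0 genes passed the limma test and 0 had an unadjusted p under 0.05.

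**Figure D2:**
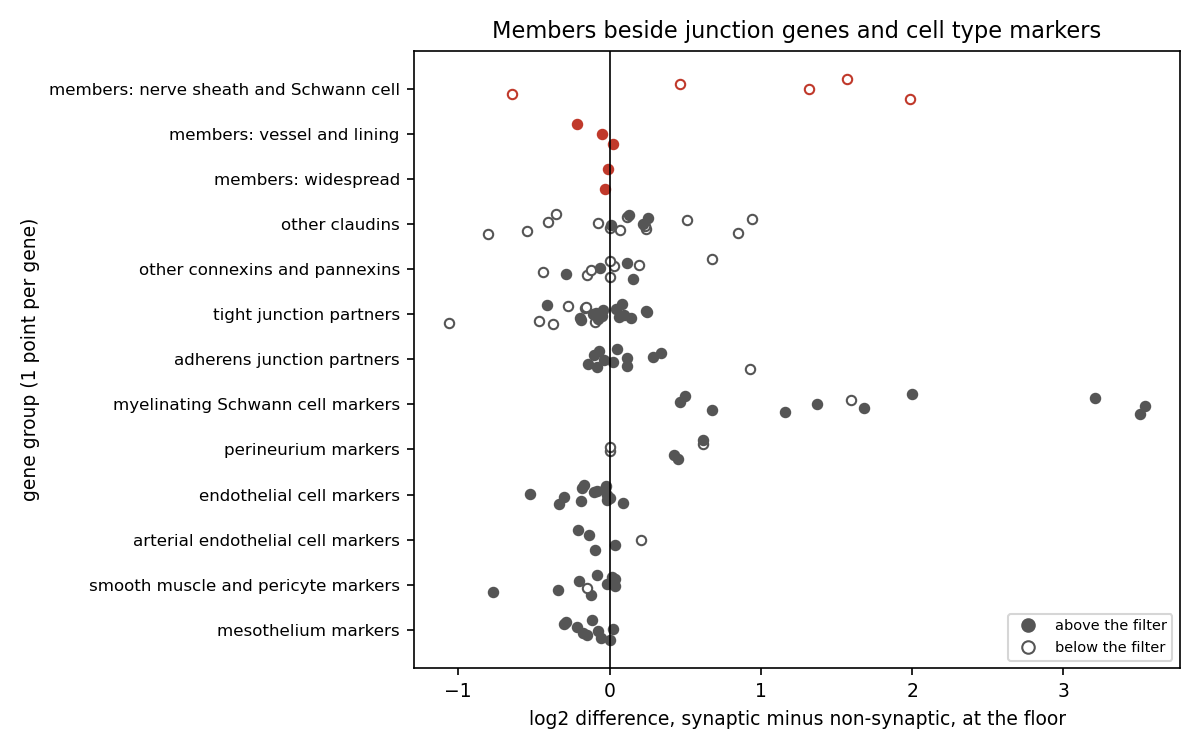
Log2 difference between the regions for the 10 genes in 3 groups (red) and for other junction genes and cell type markers (grey), 1 point per gene, hollow where the gene lay below the filter. The nerve genes Cldn1, Cldn19, Gjb1 and Gjc3 spread from 0.47 to 1.98 on the same side as the measured Schwann cell and perineurium markers. The Gjb1 point rests on 1 array above the floor, and averaging the Cldn1 probe sets gave 0.79. Cldn11 lies on the other side at -0.64, and Cldn5, Gja4 and Cldn15 lie between -0.21 and 0.02.

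Tjp1 encodes the scaffold of tight junctions in epithelia, endothelia and perineurium. Its intensities were 10722 and 16271 in the synaptic region and 11014 and 16095 in the non-synaptic region. The difference between regions was -0.01 ± 0.30, with a 95% interval from -0.77 to 0.75, while both arrays numbered 2 lay above both arrays numbered 1, by 0.57 on the log2 scale.

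Gja1 encodes the most widespread connexin, found in smooth muscle, fibroblasts and many other cells, and had 6 probe sets. The one with the highest mean, 1437992_x_at, read 16833 and 19661 in the synaptic region and 16434 and 21012 in the non-synaptic region. It differed by -0.03 ± 0.20 between regions, with a 95% interval from -0.55 to 0.48. Probe set 1415800_at read 8107 and 14929 against 11234 and 15213, a difference of -0.25 ± 0.35. Its neighbour 1415801_at varied most, with 82.5 and 2246 against 722 and 2641. That probe set differed by -1.21 ± 1.35, and synaptic array 1 was at the floor on it. The remaining 3 differed by between -0.15 and 0.002. One of them, 1438650_x_at, had both synaptic arrays below both others, at 4446 and 4717 against 4782 and 5387. By the maker's naming, probe sets ending in x_at may also bind other transcripts.

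Over the 10 probe sets tested, 0 passed the adjusted limma test, against 0.0113% of all 26480, and 0 had an unadjusted p under 0.05, against 0.986% of all (0.653% higher and 0.332% lower). Their median difference was -0.06, that of all tested probe sets -0.01. None had both synaptic arrays above both others, against 9.89% of all tested, and 1 had them below, against 9.98%. The number carried by the arrays separated more of them, as it did over all tested probe sets, so this is not particular to these genes. Both arrays numbered 2 were above both numbered 1 on 5 of the 10, against 33% of all tested, and below on 1, against 28.3%. Those 5 belong to Gja1 and Tjp1 only, and most of the 10 are probe sets of Gja1, so they are not 10 independent readings. The difference between the numbers exceeded the difference between regions on 8 of the 10, and the share of all tested probe sets was not counted. Its median size was 0.30 against 0.06, and the same medians over all tested probe sets were 0.29 and 0.14. The titles do not say what the number stands for.

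**Figure D3:**
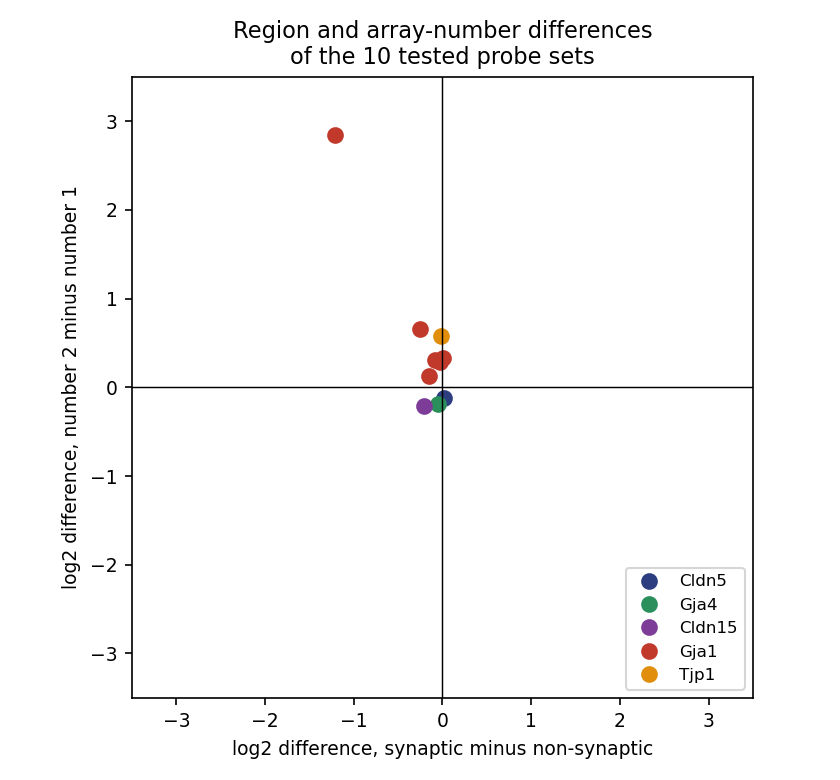
Log2 difference between the regions (x axis) against that between the arrays numbered 2 and 1 (y axis) for the 10 tested probe sets, coloured by gene. All but 1415801_at lie within 0.25 of 0 on the x axis, and those of Gja1 and Tjp1 lie above 0 on the y axis, up to 2.85 for the Gja1 probe set 1415801_at.

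**Figure D4:**
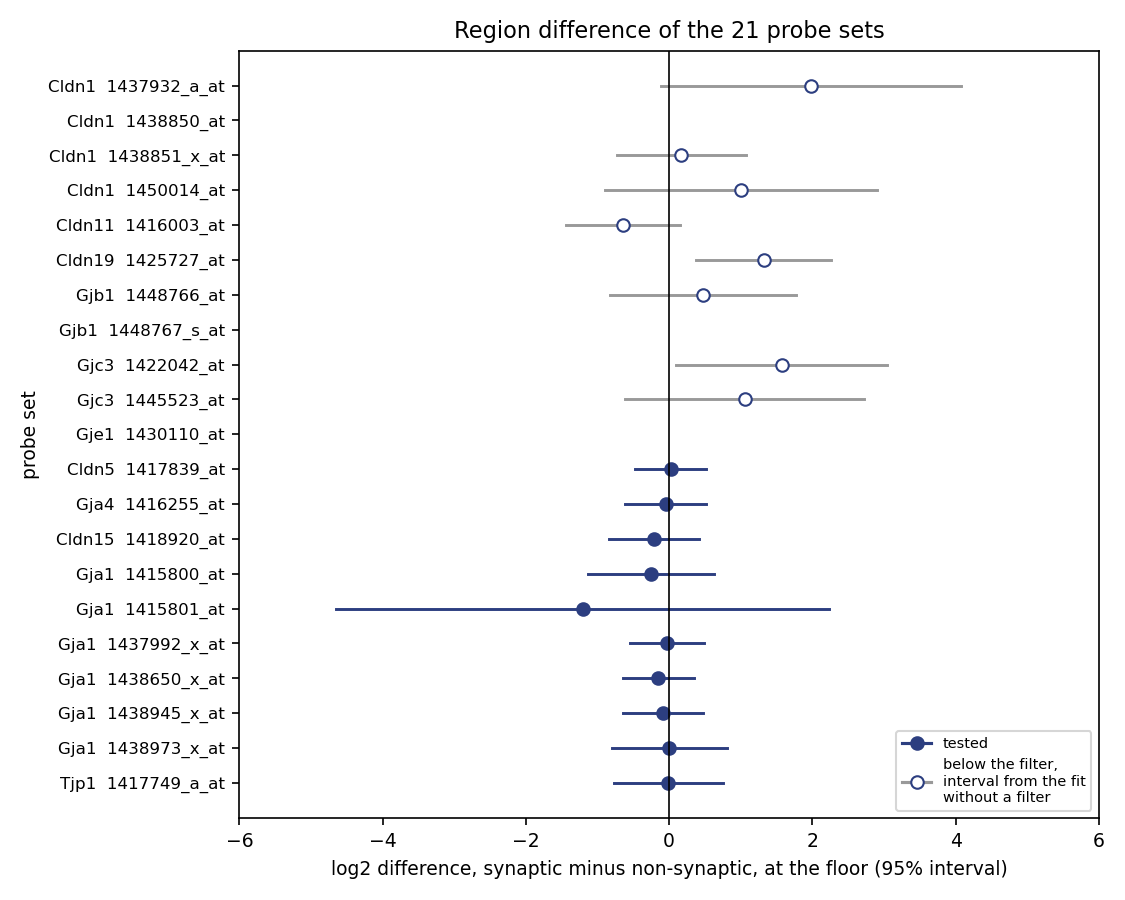
Log2 difference between the regions of the 21 probe sets with its 95% interval, filled where tested and hollow where below the filter. The 3 probe sets with all 4 arrays at the floor have no point. All 10 tested intervals include 0, and among the hollow ones only those of Cldn19 and of the Gjc3 probe set 1422042_at do not, where both non-synaptic arrays are tied at the floor.

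The rest of the claudin and connexin families gave little more above the filter. Of 22 other claudin-family genes 17 had a probe set and 4 were measured, with a median difference of 0.17. Cldn12 read 6337 and 5649 in the synaptic region against 5159 and 5117, a difference of 0.22 ± 0.19. Cldnd1, a claudin-domain gene, differed by 0.13 ± 0.19, Cldn22 by 0.25 ± 0.33 and Cldn10 by 0.01 ± 0.30. Of 18 other connexins and pannexins, which form related channels, 12 had a probe set and 4 were measured, with a median of 0.03. Gjc1, a connexin of vessel walls, differed by -0.06 ± 0.30, Gjb2 by -0.29 ± 0.33, Gja3 by 0.15 ± 0.34 and the pannexin gene Panx1 by 0.11 ± 0.31. Gja5, known from arterial endothelium beside Gja4, lay at the floor on all 4 arrays.

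Partners of these proteins at the junction did not pass either. Of 24 tight junction partners 16 were measured, with a median of -0.05. Esam, an adhesion molecule of endothelial cells, differed by -0.20 ± 0.16, the scaffold Mpdz by -0.09 ± 0.21, the polarity proteins Pard3 by 0.24 ± 0.21 and Patj by 0.25 ± 0.29, and the virus receptor and adhesion molecule Cxadr by -0.42 ± 0.36. Of 12 adherens junction genes 11 were measured, with a median of 0.02. Cdh5, the cadherin of endothelial cells, differed by 0.12 ± 0.16, Ctnnd1 by 0.11 ± 0.18, the catenins Ctnnb1 by -0.04 ± 0.18 and Ctnna1 by 0.02 ± 0.17, the plakoglobin gene Jup by 0.29 ± 0.40 and Nectin1 by 0.34 ± 0.45. In each of these 4 lists 0 measured genes passed the limma test in either direction, and 0 had an unadjusted p under 0.05.

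Cell types of the surrounding tissue were checked in the same way. Smooth muscle and pericyte markers had a median of -0.08 over 9 measured genes, fibroblast markers -0.08 over 8, epithelial markers -0.42 over 4 and hepatocyte markers -0.17 over 2, and 0 of these passed the adjusted limma test. At an unadjusted limma p under 0.05 there was 1 lower smooth muscle gene and 1 lower fibroblast gene, against 0.332% of all tested. Both synaptic arrays lay below both others on 4 of the 9, 2 of the 8, 1 of the 4 and 0 of the 2. They lay above on 0 genes of each list. The shares of all tested probe sets were 9.98% below and 9.89% above. Of 4 measured fat cell markers 1, Adipoq, fell (limma adjusted p = 0.0326), with a median over the 4 of -3.37. Summed intensities of the fat cell list were 7363 and 4818 on the synaptic arrays and 22425 and 17715 on the others. Its part in the values of the 10 genes was not tested.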

How the data were processed

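RNA of the synaptic and non-synaptic region was measured on 2 arrays each. The authors deposited 1 intensity per probe set, on a linear scale, for 45101 probe sets. How these were scanned, summarised and scaled is not given in the sources used here. Every array has the same mean, 2500.0, once 2% is trimmed from each end. That common scaling was kept, and it would hide a shift that most transcripts share. The 64 control probe sets were left out of the tests.

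Synaptic was tested against non-synaptic in R 4.3.3 with limma 3.58.1 (lmFit, eBayes with an intensity trend, 2-sided, Benjamini-Hochberg over 26480 probe sets, 2 residual degrees of freedom, a prior worth 3.16 more). The fit was tested on simulated data, with changes only in bright probe sets and noise drawn independently for each array. That test does not cover dim probe sets at the floor. Gene names came from the platform annotation, which can be old, updated through the Entrez identifier with RefSeq tables of GRCm38.p6. Of all probe sets 34958 had 1 gene, 932 several and 9211 none, and 34754 matched the tables.

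The genes and lists were chosen with earlier results of these data known. Named beside the 10 genes were, of each junction list, up to 4 measured genes by lowest unadjusted p and 2 by highest mean, and of each cell type list up to 2 of each kind, where the smallest p counted only for nerve, vessel and mesothelium lists. Not all of these are printed. A further part of the rule, naming the genes most like a measured member with separate regions on the probe set that stands for it, found no such member. Alternatives were other normalizations, filters, floors, priors, a block, leaving out each array and averaging a gene's probe sets. The number of arrays limits the precision.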

Additional observations from a re-analysis of the deposited data

How the results depend on the processing

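In every setting tried, 0 of the tested probe sets of the 10 genes passed the adjusted limma threshold. Where a filter was set, probe sets below it were not tested, so they could not pass. Only without a filter were the dim genes all tested, and there no probe set of the array passed. On the probe set that stands for it, Cldn1 also came above the filter when either non-synaptic array was left out. It then differed by 1.44 without non-synaptic array 1 and by 2.53 without non-synaptic array 2. Over all probe sets, 3 passed, and this became 0 when no filter was set, when the trend was dropped and when the test was not moderated, 5 when the filter was raised to the 60th percentile, and 8 under median centring. Leaving out an array gave from 0 to 11, with 0 without either non-synaptic array, 7 without synaptic array 1 and 11 without synaptic array 2. With the array number as a replicate block 74 passed, none of them among the tested probe sets of the 10 genes. The filter held in that fit too, so the dim probe sets were not tested in it. The deviations of same-numbered arrays from their region's mean correlated at 0.63 over the tested probe sets, and nothing in the titles says that the numbers pair the arrays. The causes of these changes were not tested.

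The count of probe sets with both synaptic arrays above the others, 7, became 1 with the floor at the 40th percentile and ran from 7 to 11 when an array was left out (11 without synaptic array 1), where fewer arrays separate more easily (27.8% to 33.2% of all probe sets). The count below, 2, became 1 with that floor (6.3% of all) and ran from 3 to 8 when an array was left out (27.9% to 36.8% of all), with 8 without synaptic array 2. These settings were chosen after seeing the data.

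Signs of the small differences were not stable. Leaving out an array gave from -0.14 to 0.18 for Cldn5, -0.20 to 0.11 for Gja4, -0.45 to 0.023 for Cldn15, -0.21 to 0.15 for Gja1 and -0.31 to 0.29 for Tjp1, and median centring gave 0.0079 for Tjp1. For the dim genes the range was 1.44 to 2.53 for Cldn1, 0.98 to 1.66 for Cldn19, 1.05 to 2.10 for Gjc3, 0 to 0.94 for Gjb1 and -0.87 to -0.41 for Cldn11. With the floor at the 40th percentile the values were 0.97 for Cldn1, 0.27 for Gjc3, 0.05 for Cldn19 and 0 for Cldn11. The mean of the 4 Cldn1 probe sets gave 0.79.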

Other observations

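Below the filter lay 13 other claudin-family genes, 8 other connexins and pannexins, 6 tight junction partners and 1 adherens junction gene. Of these, 4 had both synaptic arrays above both others and 4 had them below, and none was tested. Shares among all probe sets below the filter were 16.3% above and 14.5% below, so the counts are not read as a trait of junction genes. Those above were Cldn18, a claudin of stomach and lung, with intensities of 458 and 517 on the synaptic arrays against 269 and 239, Cdh1, the cadherin of epithelia, with 159 and 578 against 77.4 and 35.2, the pannexin gene Panx3 with 199.0 and 325 against 108 and 113, and Cldn23 with 85.4 and 186 against 74.4 and 76.3. Those below were Ocln, which encodes occludin of tight junctions, with 235 and 133 against 495 and 328, Cldn2, a claudin of leaky epithelia, with 197 and 237 against 401 and 356, Cldn13 with 74.6 and 147 against 163 and 173, and Gja10 with 62.2 and 59.6 against 82.8 and 196. These genes were singled out after their values were seen.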
